A study of Homo sapiens with 6 samples.

Results

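The cytosolic ribosomal protein genes encode the proteins of the ribosome that translates nuclear-encoded messages in the cytoplasm. They were selected by symbol alone, as RPL or RPS followed by a number and at most a single letter A, X or L, together with RPLP0, RPLP1, RPLP2 and RPSA. This gave 81 of the 61806 genes in the table, all annotated as protein-coding in GENCODE release 29. The rule itself used no measured value, but the family was chosen with earlier results of these data known. FAU and RACK1, whose products also belong to the ribosome, have other symbols and are given separately.

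RNA was sequenced from MDA-MB-231, an established human triple-negative breast cancer line with mesenchymal features, in 6 libraries. The shNC line carried a control vector, and the shHMGA2-1 and shHMGA2-2 lines each carried a different lentiviral pLKO short hairpin RNA against HMGA2, which encodes an architectural chromatin protein that binds the minor groove of AT-rich DNA. Each line had 2 libraries, and all cells were of the same parental line. The methods describe stable knockdown lines expanded from a single clone after puromycin selection, without saying so separately for shNC, so that a line and its hairpin cannot be told apart. Whether the 2 libraries of a line came from separate cultures is not given in the sources used here, and p-values therefore measure only the spread between these libraries, which may be technical. The library names mark the controls as wild type and carry SH2 for shHMGA2-1, and the sample titles were followed.

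The ribosome is built from a small subunit, which reads the message and holds the decoding centre, and a large subunit, which joins amino acids and carries the exit tunnel and the acidic stalk. Most of its proteins are needed in equal amounts, are made in the cytoplasm, and are imported into the nucleolus for assembly with ribosomal RNA. Their mRNAs are short, abundant and begin with an uninterrupted tract of pyrimidines, the 5′ terminal oligopyrimidine (5′ TOP) motif, through which mTOR signalling and the protein LARP1 control their translation and stability.

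Libraries held 16461178 to 17167293 counts, of which mitochondrial genes took 6.74% to 7.86%. HMGA2 itself had 131 and 133 CPM (counts scaled by the library total and its TMM factor) in shNC, against 49.5 and 58.3 in shHMGA2-1 and 25.7 and 27.6 in shHMGA2-2, all knockdown libraries lying below both controls (log2 fold change −1.29, adjusted p = 2.17e-11, and −2.31, adjusted p = 2.11e-16). Of the markers of this line, VIM, CD44, EGFR, AXL and CAV1 had at least 3145 counts in each library and ESR1, PGR and CDH1 at most 12, while ERBB2 (1126 to 1909) and EPCAM (127 to 302), taken as low in this line, were detected. The leukocyte markers PTPRC, CD3E and CD14 had at most 8 counts.

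The tract at the start of the mRNA is the sequence feature that most members shared. Of the 81 genes, 64 could be matched to a RefSeq transcript start in GRCh38.p14. A run of at least 8 consecutive C or T, touching the interval from 10 bases before to 12 bases after the start on the sense strand, was found in 54 of the 64 (84.4%), against 20.2% of 11122 other tested genes and 19.1% of all 27305 genes with a start. The longest run had a median of 12 bases in the members and 5 in the other tested genes. The windows of 30 bases below, from 12 before to 18 after the start, 5′ to 3′ on the sense strand with the pyrimidine run in capitals, belong to genes with large changes in either line and to the RPS27 paralog RPS27L and RPS29, whose runs were short.
RPL35A: cggggcctcgTCCTTCTCTTaccgccatct
RPS7: tccgCCCTCCTCCTCgcgctgtttccgcct
RPLP2: cgtcggcgCCTTCCTTTTCCTCCCTgtcgc
RPL24: ccatgaTTCTCTCTTTCTTTTCgccatctt
RPL22: ttcgctcaCCTCCCTTTCTaactccgctgc
RPL11: aagctccgCTTTCTCTTCCTgctctccatc
RPS21: gactagctgCTTCCTTTCTCTCTCgcgcgc
RPS27: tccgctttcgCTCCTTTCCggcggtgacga
RPS24: cgaatcgtggTTCTCTTTTCCTCCTTggct
RPS27L: ttgatgccgagcgcagatcgCTTgcagctt
RPS29: cgagcgcgcagCTggcagcggtggttgttt
These lie at chr3:197950178-197950207 (plus strand) for RPL35A, chr2:3575248-3575277 (plus) for RPS7, chr11:809955-809984 (plus) for RPLP2, chr3:101686701-101686730 (minus) for RPL24, chr1:6199578-6199607 (minus) for RPL22, chr1:23691794-23691823 (plus) for RPL11, chr20:62387091-62387120 (plus) for RPS21, chr1:153990750-153990779 (plus) for RPS27, chr10:78033851-78033880 (plus) for RPS24, chr15:63157460-63157489 (minus) for RPS27L, and chr14:49598693-49598722 (minus) for RPS29.

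Shorter pyrimidine words near the start were also more frequent in the members than in other tested genes. CTTTCC, searched on the sense strand from 10 bases before to 22 after the start, occurred in 31.2% of the members and 2.34% of other tested genes, and CTCTTT in 23.4% and 1.61%. In the whole 300 bases (250 before, 50 after), CGGAAG on either strand, a core bound by ETS family factors, occurred in 64.1% of the members against 37.3%. AATATT, an AT-only word searched because HMGA2 binds AT-rich DNA, occurred on either strand in 1 of 64 members (1.56%) against 4.33%. The median A+T content of this window was 40.3% in the members and 35.3% in the other tested genes. These are matches of letters only, and no factor's binding was measured.

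Members were among the most abundant mRNAs of the control line. Their mean FPKM in shNC (fragments per kilobase of exonic size, scaled to the library total) ran from 8.28 to 558 over the 77 members that are not tissue-restricted paralogs, with a median of 111, beside a median of 3.38 over all tested genes. By FPKM, 57 of the 81 ranked in the first 500 genes and 19 in the first 100. The highest were RPS2 (558), RPL41 (475), RPL7A (416), RPL8 (385) and RPLP0 (336).

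The lowest of the 77 were RPS29 (8.28) and RPL36A (13.4). FPKM fell as the exonic size in the table rose (Spearman's rho −0.532 over 77 genes, a description), and RPS29 is listed with 9840 exonic bases against a median of 3230, so that levels per length rank the genes only roughly.

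The first question was whether HMGA2 knockdown moved the family as a whole. Of all counts, the members took 3.35% and 3.22% in the control libraries, 3.98% and 3.79% in those of shHMGA2-1, and 3.73% and 3.86% in those of shHMGA2-2. The exact binomial 95% interval, which covers counting error only, was 3.34% to 3.36% for shNC replicate 1 and similarly narrow in the others. All 4 knockdown libraries lay above both controls, the means being 3.28% ± 0.0902 (SD, n = 2), 3.89% ± 0.135 and 3.79% ± 0.0914. Scaled to library totals only, the median of all tested genes also rose, by 0.0747 in shHMGA2-1 and 0.148 in shHMGA2-2 on the log2 scale. The members' medians under this scaling were 0.261 and 0.211. The share of large subunit genes was 2.09% to 2.16% in shNC and 2.38% to 2.57% in the knockdown lines. That of small subunit genes was 1.13% to 1.19% and 1.34% to 1.42%. In bulk RNA, fewer cells with a given level and less RNA per cell cannot be told apart.

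**Figure D1:**
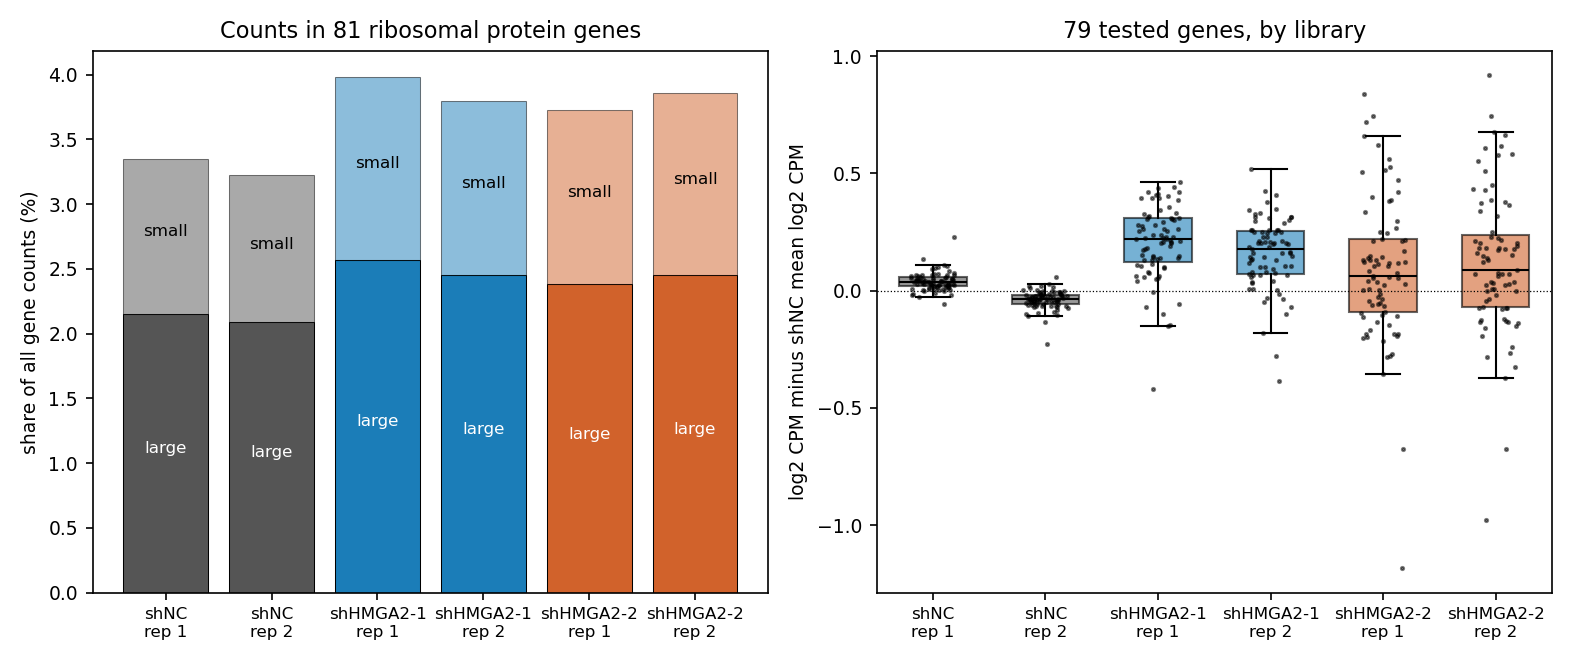
Left, percent of each library's gene counts in the 81 ribosomal protein genes, split into large (dark) and small (light) subunit genes; right, log2 CPM of each of the 79 tested genes minus its mean log2 CPM in shNC, with box (quartiles), median line and whiskers (1.5 times the box height at most). Both shHMGA2-1 libraries are shifted upward as a block (medians 0.22 and 0.18), while shHMGA2-2 has smaller medians (0.06 and 0.09) and a wider spread.

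The shift of the median member differed between the lines. Relative to the mean of the controls on the log2 CPM scale, the median member stood at 0.220 and 0.175 in the shHMGA2-1 libraries, where 72 and 70 of 79 members were above the control mean. In shHMGA2-2 it stood at 0.0629 and 0.0867, with 50 and 53 members above. The controls differed from each other as well, since 71 of 79 members were higher in shNC replicate 1 than in replicate 2, by a median of 0.0702. This is smaller than either shHMGA2-1 shift and of the size of the shHMGA2-2 shifts.

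In shHMGA2-1 against shNC, 48 members rose and 2 fell at an adjusted p under 0.05 (edgeR quasi-likelihood test), out of 79 tested, or 60.8% and 2.53%. Among all 16110 tested genes 15.8% rose and 17.6% fell. The median log2 fold change of the members was 0.196, a 1.15-fold rise, against 0.0101 for all genes, and 72 of 79 were above 0, against 51.2% of all genes. The changes lay within a narrow band, with an SD of 0.146 over the members, and none reached 2-fold, a call made for 4.89% of all genes upward and 3.59% downward. The 48 genes that rose did so by 0.15 to 0.49. Without shNC replicate 2, the lower of the controls, 19 rose and 1 fell, and the median was 0.155.

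In shHMGA2-2 against shNC, 29 members rose and 12 fell, or 36.7% and 15.2%, against 29.5% and 29.2% of all tested genes. The median was 0.0907 beside 0.0281 for all genes, and 52 of 79 were above 0, against 52% of all genes. The members spread more widely than in the other line (SD 0.305), with changes from −1.08 to 0.82. RPL39L was the only member past 2-fold, a call made for 9.65% of all genes downward and 11.7% upward. Without shNC replicate 2, 17 rose and 9 fell, and the median of 0.0359 was 0.0141 above that of all genes. With library totals in place of the trimmed mean scaling (TMM), which moved the median of all genes to 0.148, 49 members rose and 6 fell, and the members' median of 0.211 then stood 0.063 above that of all genes. With a trend over exonic size removed, 25 rose and 18 fell, and the median of 0.02 stood 0.0074 above that of all genes.

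With the 4 knockdown libraries taken as a single group, the difference between the lines entered the error, and RPS7 alone rose (0.39, adjusted p = 0.0432), while 0 members fell. The background was 2.34% higher and 2.92% lower, 20 of 79 members had an unadjusted p under 0.05 (25.5% of all genes), and DESeq2 called 4 and limma 3. The median was 0.142 beside 0.0363 for all tested genes. The order turned with DESeq2 (0.125 beside 0.161) and without a filter on low counts (0.121 beside 0.155). In these 2 settings the second value covers every gene with any count, a different set from the tested genes. Compared directly, shHMGA2-2 was higher than shHMGA2-1 for 14 members and lower for 28, against 24.5% and 25.7% of all genes, with a median difference of −0.0986. With library totals in place of TMM it was higher for 16 and lower for 20. These comparisons share their control libraries, so that their values are set side by side and are not independent.

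**Figure D2:**
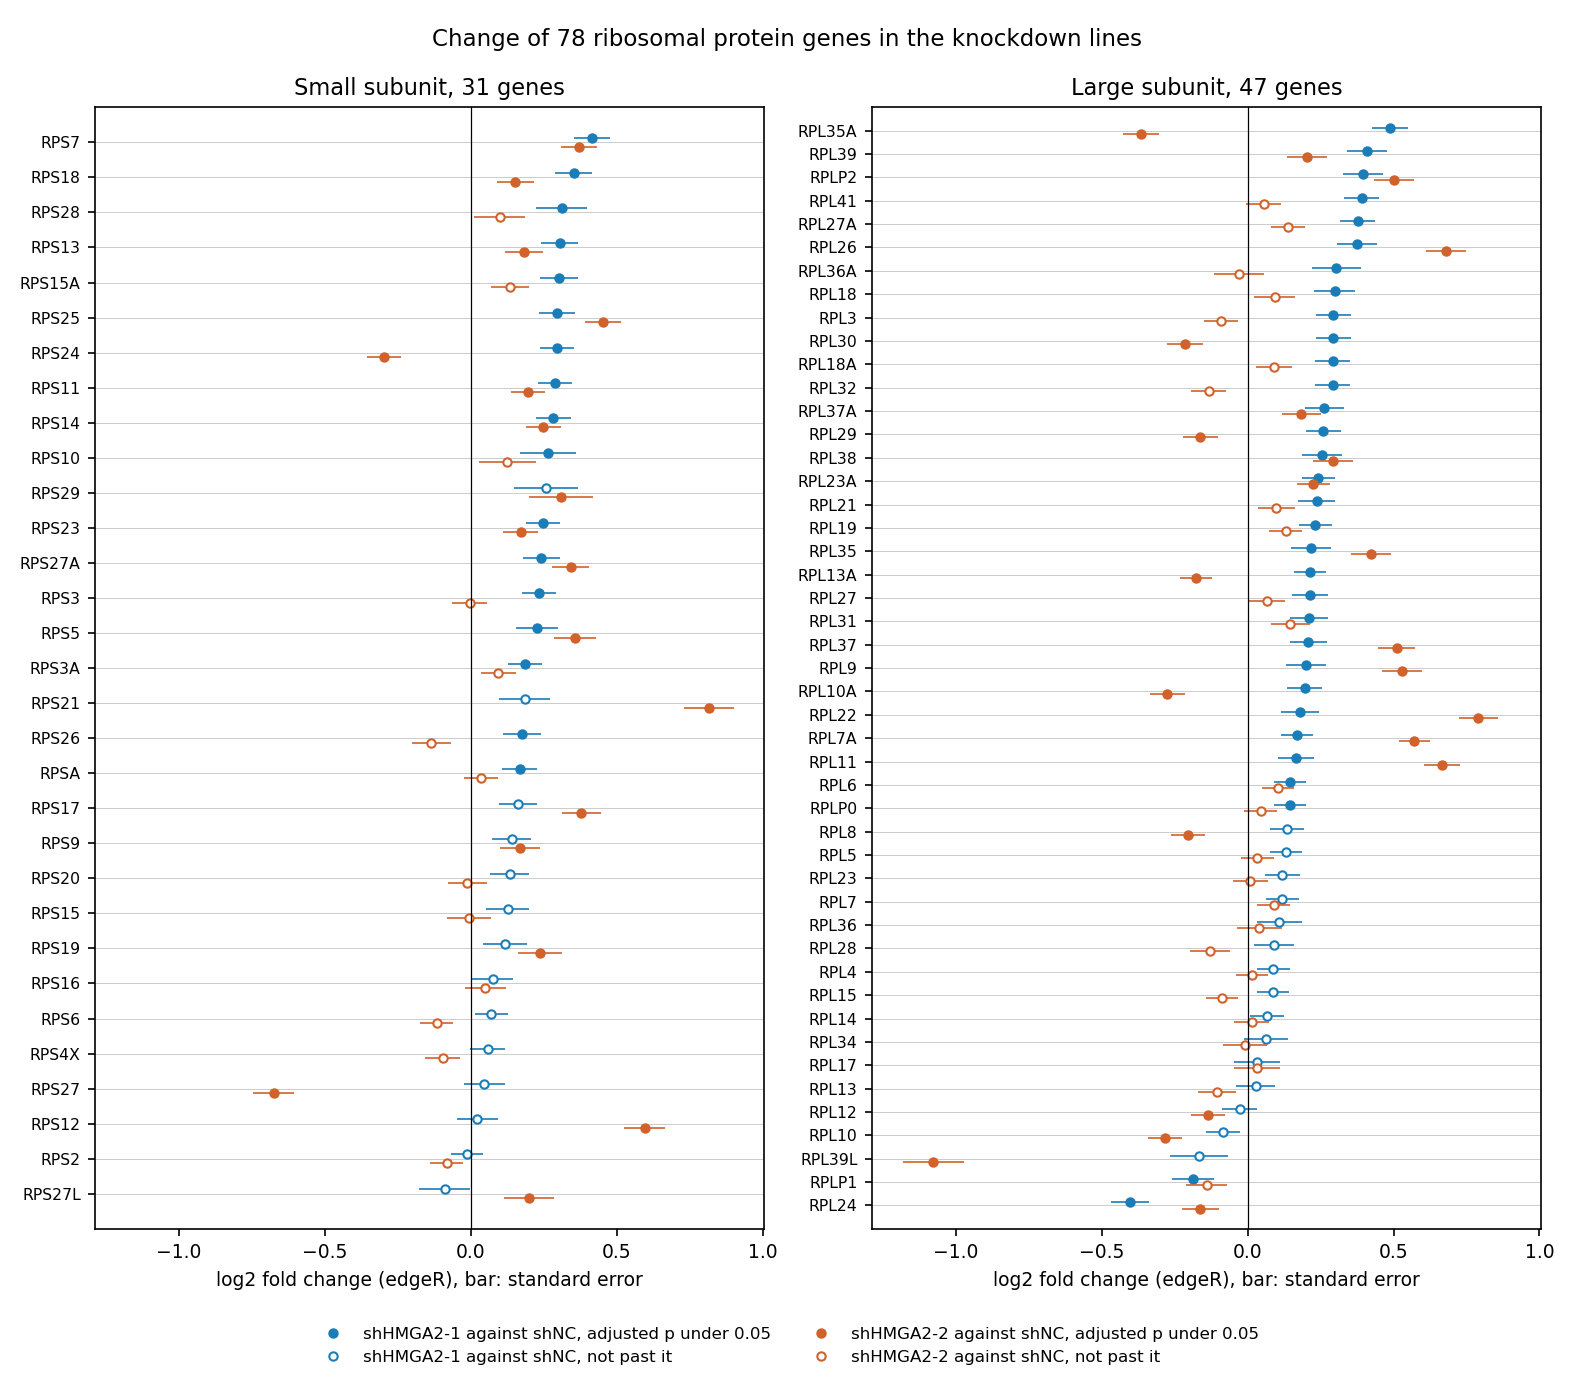
Fitted log2 fold change against shNC for 78 of the 79 tested genes in shHMGA2-1 (blue) and shHMGA2-2 (orange), small subunit left and large subunit right, ordered by the change in shHMGA2-1. Bars are standard errors from 2 libraries a line and filled points have an adjusted p under 0.05. Blue points form a band from −0.40 to 0.49, mostly right of 0, and orange points scatter from −1.08 to 0.82.

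Of the stalk proteins, which recruit translation factors to the large subunit, each behaved differently. RPLP2 (11:809965-812880, plus strand) had 228 and 213 CPM in shNC, with 299 and 281 in shHMGA2-1 and 295 and 329 in shHMGA2-2. It rose in both lines without overlap between knockdown and control libraries, by 0.39 ± 0.069 (SE; adjusted p = 7.36e-05) and 0.50 ± 0.069 (adjusted p = 9.71e-07). RPLP1, which forms dimers with RPLP2 on the stalk, had 349 and 323 CPM in shNC, with 314 and 277 in shHMGA2-1 and 292 and 319 in shHMGA2-2. Every knockdown library was below both controls. RPLP1 fell by 0.19 on the log2 scale in shHMGA2-1 (adjusted p = 0.0434), and the change in shHMGA2-2 was −0.14 (adjusted p = 0.0929). The change in shHMGA2-2 was called lower in 5 alternative settings.

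RPLP0, the base of the stalk and a common reference gene in quantitative PCR, rose by 0.15 ± 0.056 in shHMGA2-1 (adjusted p = 0.0484). It had 1410.2 and 1389.6 CPM in shNC, against 1618 and 1479 in shHMGA2-1 and 1451 and 1436 in shHMGA2-2, so that all knockdown libraries were above both controls, by little in shHMGA2-2 (0.04, adjusted p = 0.519). The calls for RPLP0 and RPLP1 in shHMGA2-1 were close to the threshold and were lost in 13 and 10 of the alternative settings.

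Among the 32 small subunit genes, 18 rose (56.2%) and 0 fell in shHMGA2-1, by 0.17 to 0.41, against 15.8% and 17.6% of all genes. In shHMGA2-2, 17 rose (53.1%) and 2 fell (6.25%), by −0.68 to 0.82, against 29.5% and 29.2% of all genes. RPS7, a protein of the subunit body that also binds MDM2, rose by similar amounts in both lines. It had 384 and 352 CPM in shNC, with 493 and 488 in shHMGA2-1 and 479 and 473 in shHMGA2-2, a rise of 0.41 ± 0.061 (adjusted p = 9.21e-06) and 0.37 ± 0.061 (adjusted p = 1.35e-05). Of the summed counts of RPS7 and its pseudogenes, the pseudogenes held 15.4% in shNC, 15.0% in shHMGA2-1 and 15.4% in shHMGA2-2, so its level is uncertain to that extent.

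RPS3, at the mRNA entry channel, rose in shHMGA2-1 by 0.23 ± 0.060 (adjusted p = 0.00364) and was at −0.00 in shHMGA2-2. RPSA, also known as the laminin receptor, rose by 0.17 (adjusted p = 0.0312, lost in 7 alternative settings) and was at 0.04 in shHMGA2-2. RPS6, the classical substrate of S6 kinase, was at 0.07 and −0.12 and passed the test in neither line in the reported fit. It was called higher in shHMGA2-1 in 1 alternative setting and lower in shHMGA2-2 in 5. RPS2, the most abundant member per length, was at −0.01 and −0.08.

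RPS21 and RPS12 had their highest levels in shHMGA2-2. RPS21 (20:62387103-62388520), a small protein of the subunit, had 104 and 86.4 CPM in shNC, with 111 and 106 in shHMGA2-1 and 156 and 179 in shHMGA2-2, the largest rise of any member (0.82 ± 0.086, adjusted p = 1.42e-08). RPS12 (6:132814569-132817564) had 218 and 199, 220.3 and 203, and 300.4 and 330.0 CPM, so that shHMGA2-1 overlapped the controls and shHMGA2-2 was above all others (0.60, adjusted p = 9.45e-08). In the direct comparison of the lines shHMGA2-2 was higher for both genes, by 0.63 and 0.57 (adjusted p at most 1.07e-06).

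RPS24 and RPS27 went the other way. RPS24 (10:78033760-78056813), a gene mutated in Diamond-Blackfan anaemia, had 570.0 and 550.3 CPM in shNC, against 672 and 702 in shHMGA2-1 and 464 and 447 in shHMGA2-2, 3 separate levels. It rose by 0.29 (adjusted p = 0.000355) in the first line and fell by 0.30 on the log2 scale (adjusted p = 0.000125) in the second. RPS27, a zinc finger protein of the subunit, had 172 and 160.2, 172 and 171, and 104 and 104 CPM, a fall of 0.68 on the log2 scale in shHMGA2-2 (adjusted p = 1.12e-08) and no call in shHMGA2-1 (0.05, adjusted p = 0.653).

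Among the 47 large subunit genes, 30 rose (63.8%) and 2 fell (4.26%) in shHMGA2-1, against 15.8% and 17.6% of all genes. In the other line 12 rose and 10 fell. In shHMGA2-2 these are 25.5% and 21.3%, both below the shares of all genes (29.5% and 29.2%). RPL35A (3:197950190-197956610), another Diamond-Blackfan gene, showed the largest rise in shHMGA2-1 and one of the larger falls in shHMGA2-2. Its CPM was 491 and 451 in shNC, with 648 and 673 in shHMGA2-1 and 368 and 363 in shHMGA2-2, 3 levels with no overlap. The change was 0.49 ± 0.061 (adjusted p = 8.18e-07) and −0.37 ± 0.061 (adjusted p = 1.66e-05), and the lines differed by −0.85 (adjusted p = 2.59e-11). With the 4 knockdown libraries as a single group the value was 0.12 (adjusted p = 0.818).

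RPL30 had the same pattern on a smaller scale, with 377 and 365, 451 and 459, and 326 and 314 CPM, a rise of 0.29 (adjusted p = 0.000477) and a fall of 0.21 on the log2 scale (adjusted p = 0.00387), the second being lost in 5 alternative settings (−0.10, adjusted p = 0.14, with library totals). RPL3, at the peptidyl transferase centre, rose by 0.29 in shHMGA2-1 (adjusted p = 0.000377) and was at −0.09 in shHMGA2-2. RPL41, the shortest of the ribosomal proteins, rose by 0.39 (adjusted p = 1.16e-05) and was at 0.05 in shHMGA2-2, called higher there in 4 alternative settings. RPL10, needed for joining of the subunits, was at −0.08 in shHMGA2-1 and fell by 0.28 on the log2 scale in shHMGA2-2 (adjusted p = 0.000227).

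RPL24, a late-assembling protein of the subunit interface, was the member with the clearest fall in shHMGA2-1. It had 414 and 378 CPM in shNC, with 296 and 303 in shHMGA2-1 and 346 and 362 in shHMGA2-2, so that every knockdown library was below both controls and shHMGA2-1 was the lowest. The change was −0.40 ± 0.064 (adjusted p = 2.35e-05) and −0.16 ± 0.064 (adjusted p = 0.0326), the second being lost in 8 alternative settings.

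RPL11 and RPL5 form a complex with 5S ribosomal RNA that binds MDM2 when ribosome assembly is disturbed, and their changes in shHMGA2-2 differed in size. RPL11 (1:23691742-23696835) had 351 and 329 CPM in shNC, against 377 and 386 in shHMGA2-1 and 536 and 544 in shHMGA2-2, a rise of 0.17 (adjusted p = 0.0378, lost in 9 alternative settings) and 0.67 ± 0.061 (adjusted p = 1.19e-09). RPL5 had 782 and 752, 838 and 842, and 788 and 782 CPM and passed the test in neither line in the reported fit (0.13, adjusted p = 0.0739, and 0.03, adjusted p = 0.634). It was called higher in 5 alternative settings in each line. With library totals it was at 0.153 in shHMGA2-2 (adjusted p = 0.0128). RPL5 levels in shHMGA2-2 met those of the controls, while those of RPL11 were above all other libraries.

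RPL22, an RNA-binding protein that translation itself can do without, had 248 and 242 CPM in shNC, with 265 and 291 in shHMGA2-1 and 438 and 410.4 in shHMGA2-2. It rose in both lines, by 0.18 (adjusted p = 0.0374, lost in 10 alternative settings) and 0.79 ± 0.066 (adjusted p = 2.22e-10). Its paralog RPL22L1, outside the selected symbols, had 52.7 and 54.5, 34.1 and 33.6, and 24.4 and 27.1 CPM and fell in both lines, by 0.66 (adjusted p = 5.33e-06) and 1.06 (adjusted p = 1.27e-09) on the log2 scale. The order of the 3 lines was thus opposite for the paralogs, with RPL22 lowest and RPL22L1 highest in shNC.

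RPL26 and RPL7A also rose in both lines and more in shHMGA2-2. RPL26, which binds the p53 message, had 199 and 189, 262 and 241, and 325 and 297 CPM (0.38, adjusted p = 0.000133, and 0.68, adjusted p = 6.88e-09). RPL7A had 983 and 964, 1101 and 1087, and 1437 and 1455 CPM (0.17, adjusted p = 0.0178, lost in 4 alternative settings, and 0.57, adjusted p = 2.27e-09). In both genes the 3 lines did not overlap.

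**Figure D3:**
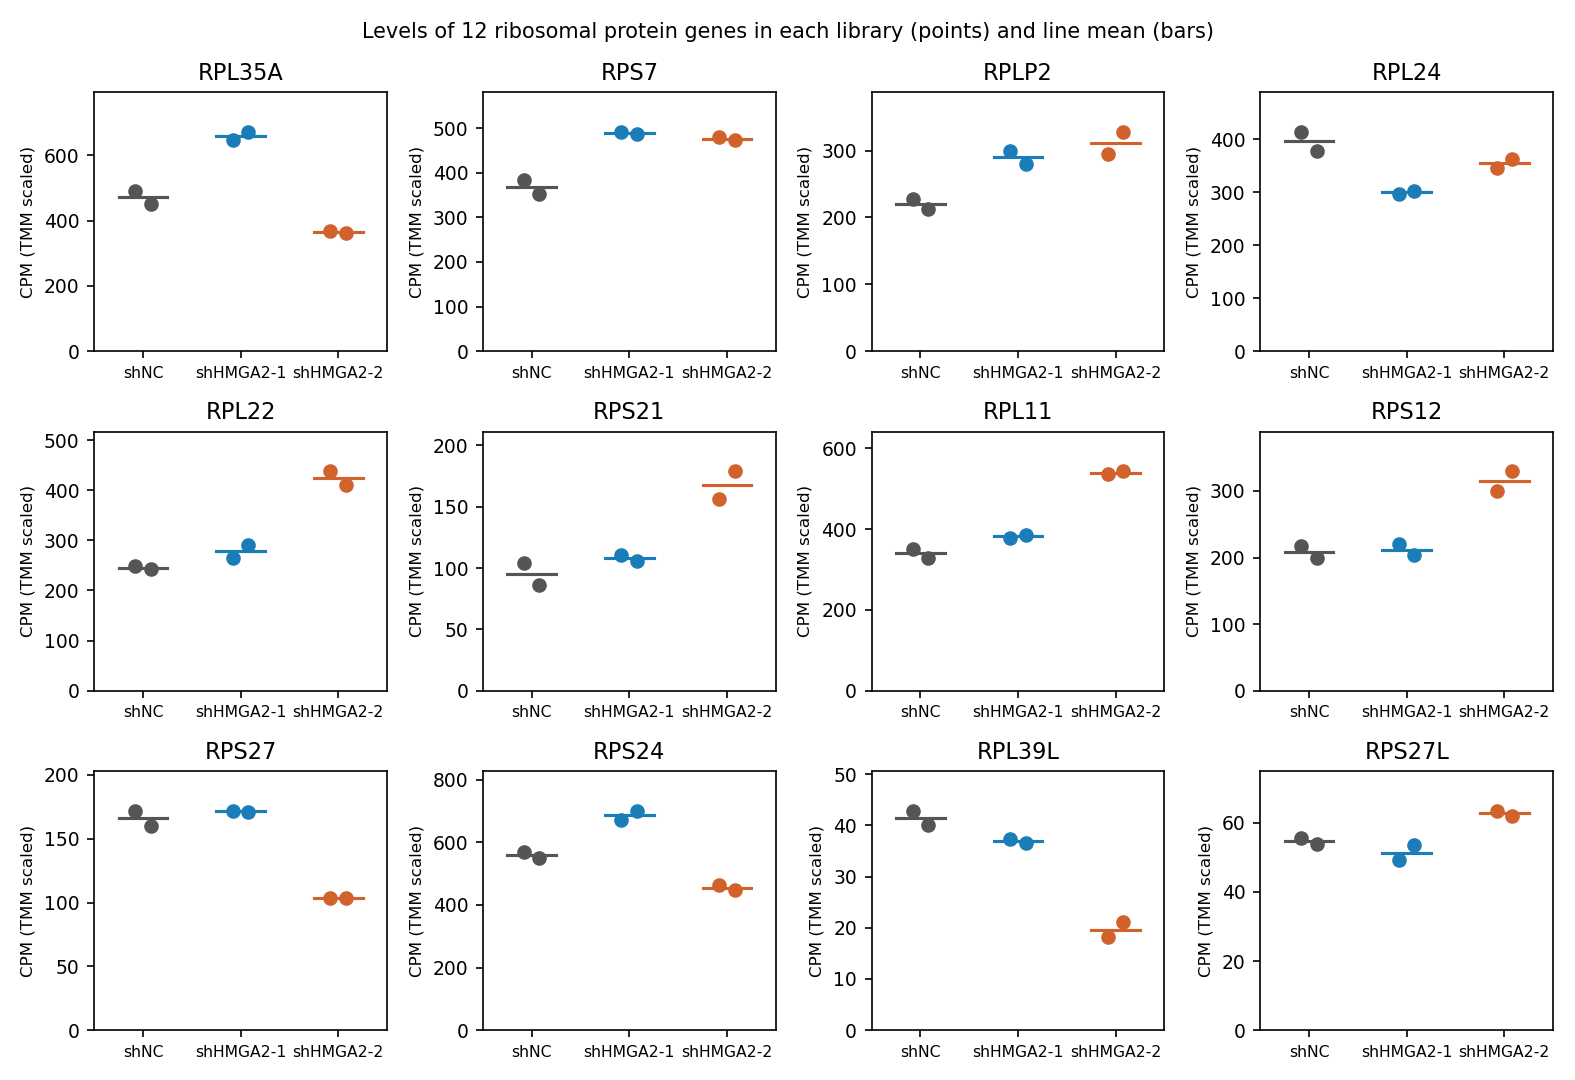
CPM scaled by TMM in each library (points, 2 a line) and the mean of each line (bars) for 12 members; every vertical axis starts at 0. RPL35A and RPS24 are highest in shHMGA2-1 and lowest in shHMGA2-2, RPL22, RPS21, RPL11 and RPS12 are highest in shHMGA2-2, and RPL39L and RPS27 are lowest there.

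The 4 tissue-restricted or duplicated paralogs differed from the rest in level. RPL10L, a testis paralog without introns, had 0 counts in every library, which allows up to 3 counts, and RPL3L, the paralog of heart and skeletal muscle, had 1 to 7 counts, so that neither was tested. RPL39L, another paralog known from testis and from tumour lines, had 42.9 and 40.1 CPM in shNC, with 37.4 and 36.6 in shHMGA2-1 and 18.3 and 21.0 in shHMGA2-2. It was 0.474-fold of the control in shHMGA2-2 (log2 −1.08 ± 0.105, adjusted p = 3.56e-09) and was not called in shHMGA2-1 (−0.17, adjusted p = 0.213). RPL39 itself rose in both lines (0.41, adjusted p = 4.51e-05, and 0.20, adjusted p = 0.0127, the second lost in 4 alternative settings).

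RPS27L, a p53-responsive paralog of RPS27, had 55.5 and 53.8, 49.2 and 53.5, and 63.5 and 61.9 CPM. In shHMGA2-2, where RPS27 fell, RPS27L was 0.20 higher than the control (adjusted p = 0.0496, lost in 8 alternative settings), and in shHMGA2-1 it was at −0.09 (adjusted p = 0.468).

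The change of a member varied with that of the genes around it on the chromosome. For each tested member, the median log2 fold change was taken over the 50 nearest tested genes of its chromosome outside the family. In shHMGA2-2 against shNC the member's own change and this neighbourhood median had a Pearson's r of 0.655 (Spearman's rho 0.541, n = 79), and in shHMGA2-2 against shHMGA2-1 of 0.775 (0.621). In shHMGA2-1 against shNC r was 0.515 (0.332), and 0.315 without RPL24. Over 4045 genes with a mean of at least 1000 counts the same measure gave 0.423, 0.465 and 0.233 in the same order. The points share libraries, and members near each other share neighbours, so these are descriptions.

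Chromosome 1 shows the pattern within a single chromosome. In shHMGA2-2 the genes around RPL22 and RPL11 had medians of 0.78 and 0.69, and these members rose by 0.79 and 0.67. The genes around RPL5 and RPS27, farther along the chromosome, had medians of −0.09 and −0.34, and these members were at 0.03 and −0.68. MTOR, which lies between RPL22 and RPL11, rose by 0.91 in the same line (adjusted p = 1e-10), with neighbours at 0.57.

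Of the 79 members, 6 rose in shHMGA2-1 and fell in shHMGA2-2, and their neighbours differed. Neither this count nor the counts by neighbours below were made over all tested genes. None is therefore shown to be particular to the members. In shHMGA2-2 the genes around RPL35A, RPS24 and RPL30 had medians of −0.49, −0.44 and −0.51, and those around RPL10A of −0.08. RPL13A (0.21, adjusted p = 0.00381, and −0.18, adjusted p = 0.00861) and RPL29 (0.26, adjusted p = 0.00152, and −0.16, adjusted p = 0.0235) fell among neighbours at 0.17 and 0.12. RPL10A itself was at 0.20 (adjusted p = 0.0141) and −0.28 (adjusted p = 0.000406). RPL39L, also on chromosome 3, had neighbours at −0.46 in shHMGA2-2. RPL24, on the same chromosome, was the only member with neighbours under −0.3 in shHMGA2-1, at −0.80, which is further down than its own change of −0.40. Of the 41 members called in shHMGA2-2, 11 had neighbours on the other side of 0. RPL12, RPL13A and RPL29 fell among neighbours above 0, RPL12 at −0.14 (adjusted p = 0.0497) with neighbours at 0.41, and 8 rose among neighbours below 0, RPL9 by 0.53 (adjusted p = 4.89e-07) with neighbours at −0.11. RPL9, RPL10A, RPL12, RPL13A and RPL29 were not followed in the alternative settings. Over all members, 12 were called lower in shHMGA2-2 in the reported fit and 6 with library totals. In shHMGA2-2, 13 members had neighbours above 0.3, and 12 of them were above 0, with a median of 0.571. A further 11 had neighbours below −0.3, and 2 of them were above 0, with a median of −0.204.

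Subtracting the neighbourhood median left a median of 0.155 in shHMGA2-1, where 71 of 79 members were above their own neighbours, and of 0.0859 in shHMGA2-2, where 49 were. The spread over members then went from 0.305 to 0.25 in shHMGA2-2 and from 0.291 to 0.189 in the direct comparison, and was nearly the same in shHMGA2-1 (0.146 and 0.14). The part that the level of the whole region has in a member's change was not tested.

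**Figure D4:**
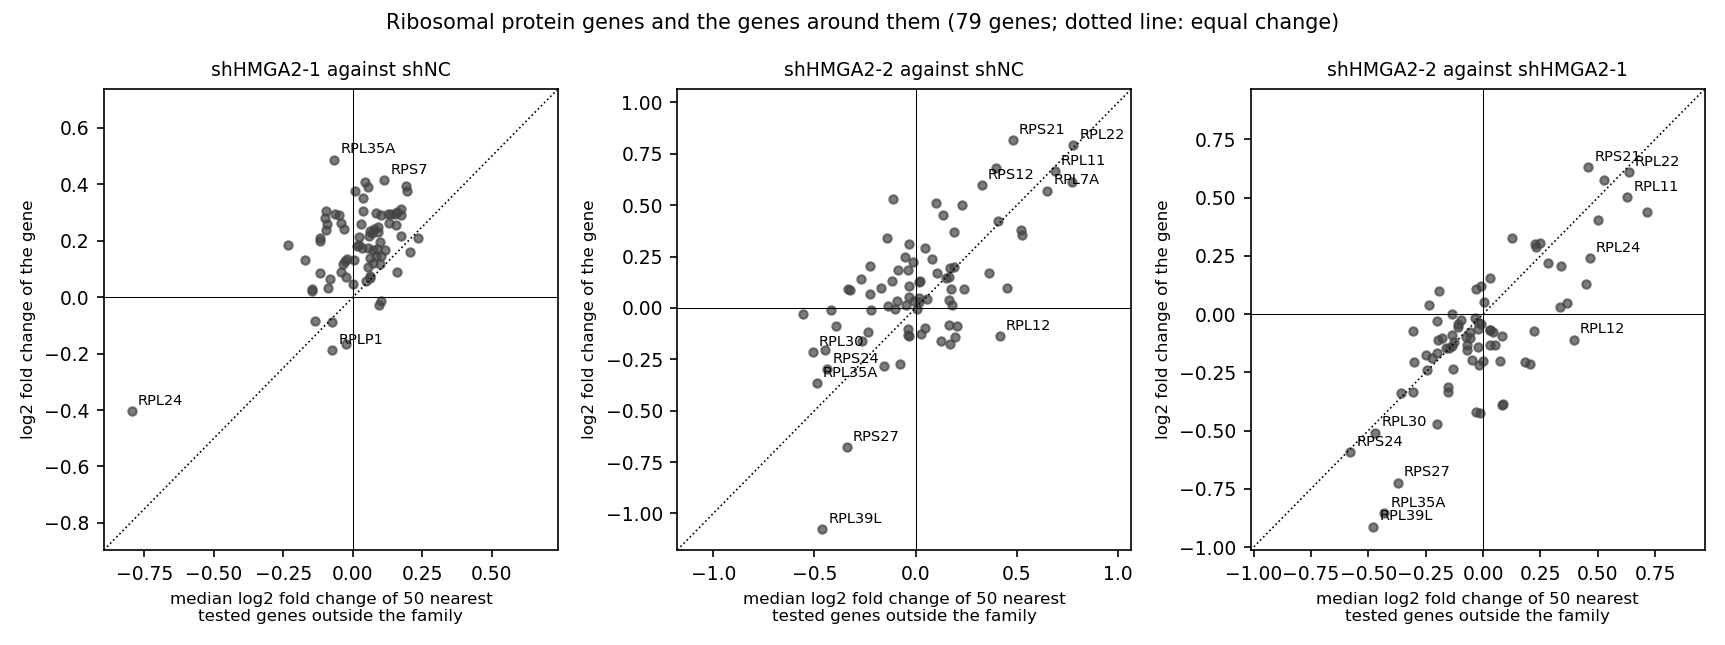
Log2 fold change of each of the 79 tested members (vertical) against the median of the 50 nearest tested genes outside the family (horizontal) in the 3 comparisons, with a dotted line where both are equal. In shHMGA2-1 the points lie above the line around a horizontal value of 0, with RPL24 apart at −0.80, and in the other panels they spread along the line (r = 0.655 and 0.775).

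Other features of the genes were set beside the change as a description, without a test. The 54 members with a pyrimidine run of at least 8 and the 9 without one had medians of 0.212 and 0.146 in shHMGA2-1 and of 0.0953 and 0.0397 in shHMGA2-2, and the length of the run had a rho of 0.082 and 0.103 with the change (n = 63). The A+T content of the 300 bases had a rho of 0.048 and −0.244. RPL24 and RPL35A, the lowest and the highest in shHMGA2-1, both carry an unbroken run in the windows printed above, and RPS29, without one, was at 0.26 and 0.31.

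Small nucleolar RNA genes lie inside 28 of the members, 60 in all. The 28 host members had the same median as the 51 others in shHMGA2-1 (0.197 and 0.196), and 0.0344 against 0.0982 in shHMGA2-2. Processed pseudogenes, of which the table lists 1350, took 0.0817% to 0.1% of counts, highest in the knockdown lines. In the 36 members whose pseudogenes summed to at least 20 counts in each library, the ratio of the summed pseudogene counts followed that of the parent gene (r = 0.697 in shHMGA2-1 and 0.778 in shHMGA2-2), and reads of a gene and its copies cannot be told apart here.

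Other lists of the translation machinery had medians nearer to that of all genes in shHMGA2-1. For comparison with each list below, 15.8% of all tested genes rose and 17.6% fell in shHMGA2-1. In shHMGA2-2 these shares were 29.5% and 29.2%. Of 15 other 5′ TOP genes, mainly translation factors, 4 rose (26.7%) and 2 fell (13.3%) in shHMGA2-1 (median 0.0499). In shHMGA2-2, 1 rose (6.67%) and 6 fell (40%), with a median of −0.105. EEF1A1, the elongation factor that delivers aminoacyl-tRNA, had 10980.2 and 10740.5 CPM in shNC, against 10946 and 10911 in shHMGA2-1 and 8487 and 8376 in shHMGA2-2, where it fell by 0.37 on the log2 scale (adjusted p = 2.59e-07). EEF2, the translocation factor, fell in both lines (−0.22, adjusted p = 0.00512, lost in 3 alternative settings, and −0.38, adjusted p = 5.69e-06). TPT1 (0.11 and −0.12) and EEF1B2 (0.03 in each) passed the test in neither in the reported fit. Alternative settings called TPT1 in 4 cases in shHMGA2-1 and 3 in shHMGA2-2, and EEF1B2 in 4 in shHMGA2-2.

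Of the other ribosome components, FAU, which carries RPS30, was at 0.20 in shHMGA2-1 (adjusted p = 0.0729, called higher in 3 alternative settings). It rose by 0.66 in shHMGA2-2 (adjusted p = 2.76e-07). RACK1, a scaffold at the small subunit's head, was at −0.04 in shHMGA2-1 and fell by 0.21 on the log2 scale in shHMGA2-2 (adjusted p = 0.00276, lost in 4 alternative settings). Among the remaining paralogs, RPL26L1 rose by 0.23 in each line (adjusted p = 0.0391 and 0.026, lost in 10 and 7 alternative settings). RPL36AL was at 0.15 and 0.04 and was called in neither in the reported fit. Alternative settings called RPL36AL higher in 5 cases in shHMGA2-1 and in 4 in shHMGA2-2. RPL7L1 was at −0.00 and fell by 0.18 on the log2 scale in shHMGA2-2 (adjusted p = 0.0121), a call lost in 7 alternative settings, with a value of −0.06 under library totals.

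Of 44 ribosome assembly factors, 2 rose (4.55%) and 11 fell (25%) in shHMGA2-1 (median −0.0805). In shHMGA2-2, 8 rose (18.2%) and 15 fell (34.1%), with a median of −0.131. NOLC1, a nucleolar chaperone of small nucleolar ribonucleoproteins, had 434 and 417 CPM in shNC, with 290.4 and 299 in shHMGA2-1 and 172 and 162 in shHMGA2-2, a fall of 0.53 (adjusted p = 3.69e-07) and 1.35 (adjusted p = 6.49e-15) on the log2 scale. Of 14 subunits and factors of RNA polymerase I, 2 rose (14.3%) and 4 fell (28.6%) in the first line. In the second 3 rose (21.4%) and 6 fell (42.9%).

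Mitochondrial ribosomal proteins, which serve a separate ribosome, gave 6 higher (7.69%) and 4 lower (5.13%) of 78 in shHMGA2-1 (median 0.0727). In shHMGA2-2 they gave 20 and 20 (25.6% each, median 0.0285). MRPS33 rose by 1.02 in shHMGA2-2 (adjusted p = 4.48e-09) among neighbours at 0.71. MRPL53, with 3 to 24 counts, was at −1.69 in that line (adjusted p = 0.0189), a call lost in 3 alternative settings, among them DESeq2. Of 13 small nucleolar RNA host genes 3 rose (23.1%) and 1 fell (7.69%) in shHMGA2-1. In shHMGA2-2, 5 rose (38.5%) and 3 fell (23.1%), and SNHG12 rose by 0.92 (adjusted p = 5.48e-07).

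Of 17 genes that control translation, 3 rose and 3 fell in shHMGA2-1 (17.6% each). In shHMGA2-2, 4 rose (23.5%) and 6 fell (35.3%). MLST8, a subunit of the mTOR complexes, fell in both lines, by 1.08 (adjusted p = 2.5e-06) and 0.81 (adjusted p = 3.1e-05) on the log2 scale. MYC, a transcriptional activator of ribosomal protein genes, was at −0.02 in shHMGA2-1 (adjusted p = 0.846) and rose by 0.26 in shHMGA2-2 (adjusted p = 0.00282, lost in 2 alternative settings). No test was made between the members and these lists.

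**Figure D5:**
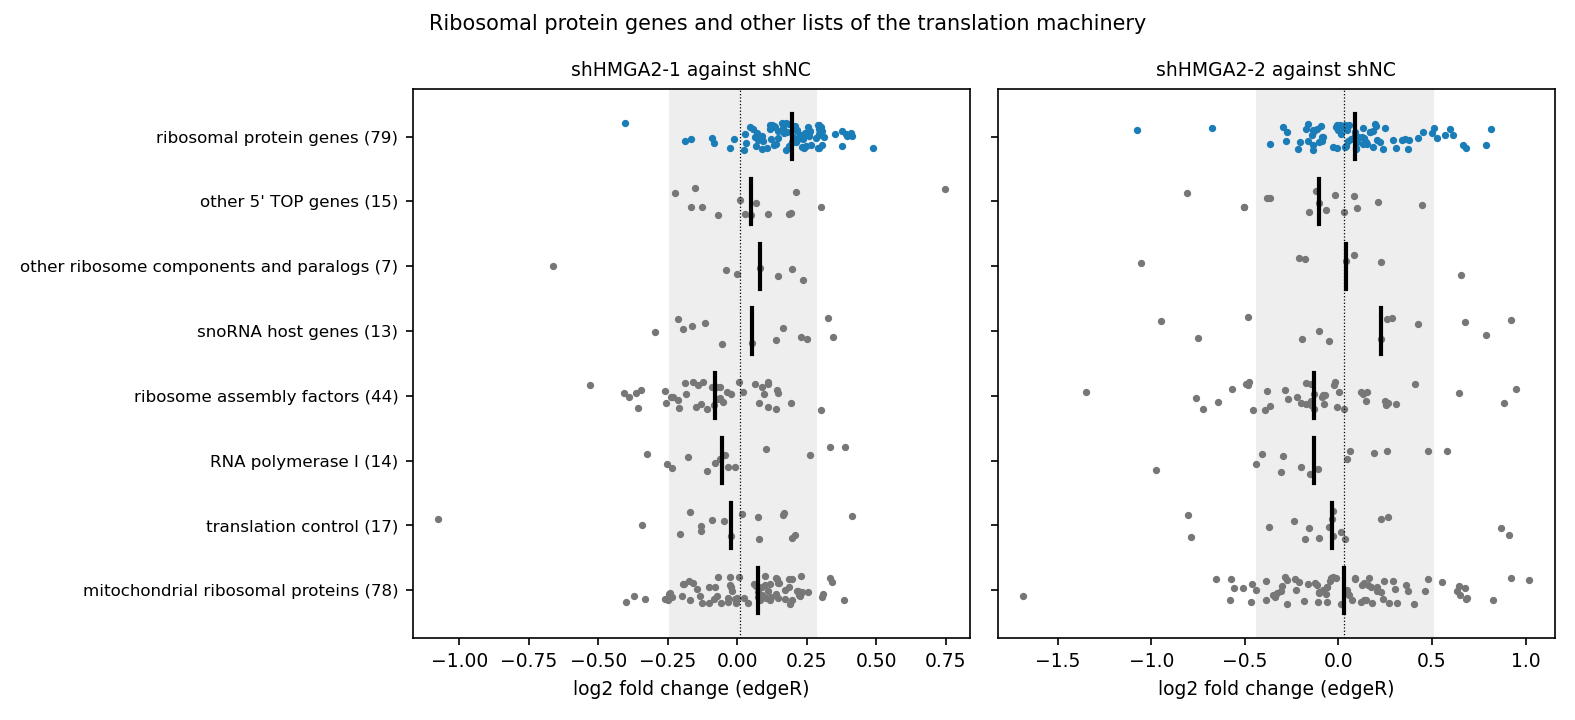
Log2 fold change against shNC of the tested genes of 8 lists (number in brackets), shHMGA2-1 left and shHMGA2-2 right; points are genes, black bars list medians, the grey band the quartiles of all 16110 tested genes and the dotted line their median. The ribosomal protein genes (blue) have medians of 0.196 and 0.0907, and the assembly factors of −0.0805 and −0.131.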

How the data were processed

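Poly(A)-captured RNA of 6 MDA-MB-231 libraries was analysed. The authors deposited 1 table with raw counts per gene, not normalized, and FPKM, which the authors made from counts, exonic size and library total. The submitters' processing notes name HISAT2 2.2.1, HTSeq 0.6.1 and GRCh38.p13; annotation and strand setting are not given in the sources used here, and without strand overlapping genes and pseudogene copies remain uncertain. Coordinates are the table's. Groups came from sample titles.

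The members and lists were chosen with earlier results of these data known. Counts of 16110 genes passing filterByExpr were fitted over 3 lines with edgeR 4.0.16 (R 4.3.3; TMM factors 0.958 to 1.05, quasi-likelihood test, Benjamini-Hochberg over all genes, call at 0.05), and standard errors are the log2 fold change over the root of F. CPM uses TMM-scaled totals. Named genes were the 5 highest and 5 lowest members per contrast and by shNC FPKM, untested or 2-fold members, preset members, and preset or 2-fold genes of the lists, and RPL9, RPL10A, RPL12, RPL13A and RPL29 were added after their values were seen. Values of some of these genes are not reported here. Alternatives were DESeq2 1.42.0, limma 3.58.1 on log2(FPKM + 1 or 0.1), other scalings and filters, size and GC trends, the replicate number as a block and each library left out. Scripts were tested on simulated data. RefSeq starts were searched in Python 3.11.15.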

Additional observations from a re-analysis of the deposited data

Results flagged for a closer look

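Of the named members, 21 differed between the knockdown lines in the direct comparison of shHMGA2-2 with shHMGA2-1 (edgeR quasi-likelihood test, adjusted p under 0.05, 2 libraries a line). Many of them were named because they were among the most changed in this or another comparison. Over all tested members, 42 of 79 (53.2%) were called, beside 50.2% of all tested genes, and all values below are log2 differences with shHMGA2-2 minus shHMGA2-1.

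The members that were lower in shHMGA2-2 were RPL39L (−0.91, adjusted p = 9.47e-08), RPL35A (−0.85, adjusted p = 2.59e-11), RPS27 (−0.72, adjusted p = 5.24e-09), RPS24 (−0.59, adjusted p = 8.27e-09) and RPL30 (−0.51, adjusted p = 1.58e-07). Smaller differences of the same sign were found for RPL3 (−0.38), RPL41 (−0.34), RPL8 (−0.34), RPL36A (−0.33), RPS3 (−0.24), RPL10 (−0.20), RPL39 (−0.20) and RPS6 (−0.19). Of these, the calls for RPL39, RPS3 and RPS6 were lost in 6, 2 and 1 alternative settings. RPL35A, RPS24 and RPL30 rose in shHMGA2-1 and fell in shHMGA2-2 against the shared shNC libraries, the fall of RPL30 being lost in 5 alternative settings. RPL10A, RPL13A and RPL29, which are not among the 21, were also called in opposite directions but were not followed in the alternative settings. The 50 genes nearest to RPL35A, RPS24 and RPL30 had median differences of −0.43, −0.58 and −0.47, and the part of the region in these differences was not tested.

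The members that were higher in shHMGA2-2 were RPS21 (0.63, adjusted p = 1.07e-06), RPL22 (0.61, adjusted p = 2.9e-08), RPS12 (0.57, adjusted p = 2.49e-07), RPL11 (0.50, adjusted p = 2.04e-07) and RPL7A (0.40, adjusted p = 9.79e-07), followed by RPL26 (0.31), RPS27L (0.29) and RPL24 (0.24). The calls for RPS27L and RPL24 were each lost in 1 alternative setting. RPL22 and RPL11 lie on chromosome 1, each among genes with a median difference of 0.63.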

How the results depend on the processing

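In each line against shNC and between the lines, the number of members called stayed within 1.5 times the value reported under DESeq2, every scaling and filter, limma, and removal of a trend over exonic size or GC content (40 to 61 for shHMGA2-1, 38 to 55 for shHMGA2-2, 31 to 53 between the lines). No named gene changed sign between the reported fit and an alternative where either of them called it. RPL9, RPL10A, RPL12, RPL13A and RPL29, added later, were not included in this check. Counted over the checked genes and settings, calls were lost 74, 58 and 37 times in shHMGA2-1, shHMGA2-2 and between the lines. Calls were gained 42, 41 and 8 times. Changes of sign without a call were not counted. Over all tested genes the replicate number did not pair the libraries. The correlation of same-numbered deviations was −0.0218 (shNC with shHMGA2-1), 0.00213 (shNC with shHMGA2-2) and −0.1 (between the knockdown lines). Over the members these correlations were 0.172, −0.421 and −0.627. With the replicate number as a block there were 40, 35 and 37 calls, and 0 in the single-group comparison.

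Leaving out each library in turn gave 20 to 51 calls for shHMGA2-1 (20 without shNC replicate 2), with medians of 0.155 to 0.234. For shHMGA2-2 it gave 26 to 51 calls (26 without shNC replicate 2), with medians of 0.0359 to 0.0908, and between the lines 28 to 46 and −0.115 to −0.0696. In the single-group comparison every such fit gave 0 calls, with medians of 0.0939 to 0.183. A lone library was then taken to vary like the other groups.

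The single-group count of 1 was 4 with DESeq2, 5 with upper quartile scaling, 5 with library totals, 0 without a filter on low counts, 3 with limma at either pseudocount and 2 with the GC trend removed. Its median was 0.231, 0.233, 0.232 and 0.233 with upper quartile scaling, library totals and limma with a pseudocount of 1 and of 0.1.

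With the same 4 settings in the same order, the median was 0.26, 0.261, 0.258 and 0.26 for shHMGA2-1, 0.206, 0.211, 0.207 and 0.209 for shHMGA2-2, and −0.0476, −0.0432, −0.0434 and −0.0436 between the lines. Upper quartile scaling and library totals moved the median of all genes in shHMGA2-2 to 0.143 and 0.148, so that the members stood 0.063 above it under either. The calls in shHMGA2-2 were then 48 higher and 6 lower, and 49 and 6, with limma 44 and 6, with the size trend removed 25 and 18, with the GC trend removed 32 and 23, with DESeq2 24 and 14, and without a filter 25 and 15. Between the lines they were 16 and 20 with either scaling and 14 and 17 with limma.

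Removing the trend over exonic size gave a median of 0.156 for shHMGA2-1 and 0.02 for shHMGA2-2, and removing that over GC content, an alternative chosen after seeing the data, gave 0.046 for shHMGA2-2, which was 0.0283 above that of all genes. Subtracting the median of the 50 nearest genes gave 0.155 for shHMGA2-1 and −0.0383 between the lines. As a share of nuclear counts the members took 3.52%, 4.19% and 4.10% in shNC, shHMGA2-1 and shHMGA2-2, and of counts without the 10 highest other genes 3.54%, 4.22% and 4.11%. The cause of these differences was not tested.

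With 2 libraries a line, changes near the spread between replicates could not be resolved, and a member that was not called is not shown to be unchanged.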
